A study of Rattus norvegicus with 6 samples.

Results

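Chemokines are small secreted proteins that guide the movement of leukocytes, and 10 of their genes were examined here in primary rat chondrocytes with and without retinoic acid (RA). The members were chosen by name as CC, CXC and CX3C chemokines, namely Ccl2, Ccl7, Ccl20, Cxcl1, Cxcl2, Cxcl10, Cxcl12, Cxcl14, Cxcl16 and Cx3cl1, out of 18923 genes in the files, and 8 of the 10 had enough reads to be tested. The choice was made with earlier results of these data known. The cells came from the cartilage of wild-type female Sprague-Dawley rats that were 24 h old, and were used at passage 1 or 2. The CON group (n = 3 samples) was kept in high-glucose DMEM with 10% FBS and 1% penicillin-streptomycin for 24 h. The RA group (n = 3) received the same medium with 1 µM all-trans RA for 24 h, and no vehicle is named for CON. The 3 samples of each group are described as independent, without a statement of whether each came from its own animals. Poly(A) RNA was sequenced, and for each gene the files give the number of reads and the FPKM, in which that number is divided by gene length and by the sample's total. Values after ± are standard deviations over the 3 samples of a group. Since FPKM is scaled by gene length, levels of different chemokines are set side by side in FPKM only.

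The subfamilies are named after the spacing of their first cysteines, which are adjacent in CC chemokines, separated by 1 residue in CXC chemokines and by 3 in CX3C chemokines. Inflammatory members such as Ccl2 and Cxcl1 are switched on by IL-1 and TNF through the transcription factor NF-κB, and homeostatic members such as Cxcl12 and Cxcl14 are expressed without such a stimulus. Chondrocytes are a known source of several of these proteins, which are studied in arthritis because they draw monocytes and neutrophils into the joint. RA acts on transcription through nuclear receptors that bind pairs of AGGTCA-like motifs in DNA.

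The promoters of the rising Cxcl1, Ccl7 and Cxcl10 are shown with that of Cxcl2, a close relative of Cxcl1 whose transcript was almost undetected, so that the sequences can be read beside the values. The stretches come from RefSeq on the assembly GRCr8, whereas the reads were counted on Rnor_6.0, and each ends at the base before the annotated start site. Capitals mark matches on either strand to the NF-κB consensus, to the interferon-stimulated response element (ISRE, GAAA repeated after any 2 bases) and to the AP-1 site (TGANTCA).
Cxcl1 (GRCr8, chr14:17479322-17479471, minus strand): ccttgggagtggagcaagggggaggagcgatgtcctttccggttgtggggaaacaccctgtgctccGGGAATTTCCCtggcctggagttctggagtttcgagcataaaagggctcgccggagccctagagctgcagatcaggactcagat
Cxcl2 (GRCr8, chr14:17467256-17467405, minus strand): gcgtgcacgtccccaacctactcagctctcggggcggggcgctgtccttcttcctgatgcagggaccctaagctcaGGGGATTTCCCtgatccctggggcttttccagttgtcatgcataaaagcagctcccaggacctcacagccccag
Cxcl10 (GRCr8, chr14:15988816-15989065, plus strand): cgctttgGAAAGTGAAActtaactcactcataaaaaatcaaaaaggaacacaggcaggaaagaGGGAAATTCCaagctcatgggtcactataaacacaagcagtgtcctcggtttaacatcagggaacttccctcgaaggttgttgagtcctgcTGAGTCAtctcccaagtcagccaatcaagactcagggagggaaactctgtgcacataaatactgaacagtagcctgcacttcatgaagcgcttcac
Ccl7 (GRCr8, chr10:67513945-67514094, plus strand): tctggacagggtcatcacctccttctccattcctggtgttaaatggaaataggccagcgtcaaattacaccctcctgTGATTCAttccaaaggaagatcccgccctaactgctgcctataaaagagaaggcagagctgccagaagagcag
Promoters from 250 bases before to 50 bases after the start site were at hand for 9 of the 10 chemokines, all but Ccl2. The NF-κB consensus was found in 4 of these 9 (Ccl20, Cxcl1, Cxcl2 and Cxcl10), against 4.18% of 33469 rat promoters of the same length. In Cxcl1 it was matched from base -84 to -74, by overlapping matches on both strands, and in Cxcl2 from -74 to -64, by overlapping matches on the strand of the gene. Cxcl10 held the consensus from -187 to -178, the ISRE from -243 to -234 and the AP-1 site from -96 to -90. It was the only 1 of the 9 with an ISRE, which 3.92% of all promoters held. The AP-1 site was found in Ccl7 (from -73 to -67), Cxcl10 and Cxcl14, against 7.33% of all promoters. The single RA receptor motif AGGTCA was found in Ccl20 alone, against 16.2% of all promoters. These matches describe letters in a short window and show no binding.

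Total counts ran from 30170909 to 38007486 in CON and from 29370025 to 30952882 in RA, so that 3 reads, the limit that a count of 0 allows, correspond to between 0.0789 and 0.102 CPM (reads scaled to a common library total), for counting error only. The CON 1 library stood apart from the other CON libraries. Its counts differed from those of CON 2 and CON 3 by a chi-square of 39.4 and 63.5 per degree of freedom, against 8.13 between CON 2 and CON 3 and 6.40 to 8.09 between RA libraries. The response to RA was present, as Cyp26a1, the RA-degrading hydroxylase, rose from 0.389 ± 0.162 to 4.01 ± 0.596 FPKM, with a log2 fold change (log2FC) of 3.35 (standard error (SE) 0.276, adjusted p = 2.13e-04, edgeR). Of 12 tested genes of the retinoid response, Cyp26b1, Rarb, Dhrs3 and Tgm2 also rose, with log2FC values of 2.65, 1.43, 0.63 and 0.91, and Rarres1 fell, at -0.87. By the rule given below, 6 of the 12 were higher DEGs and 1 was lower, beside 2.67% and 2.29% of all tested genes. The call of Rarres1 was lost without RA 1 or RA 2. Without RA 3 the higher DEGs of this list went from 6 to 4, Rarb having an adjusted p of 0.0493 with all samples (edgeR). Both groups expressed the defining chondrocyte genes. Acan, the aggrecan core protein, was at 718 ± 71 FPKM in CON and 254 ± 19.1 in RA, Col2a1, type II collagen, was at 5420.1 ± 961 and 3185 ± 141, and the transcription factor Sox9 was at 33.4 ± 2.77 and 24 ± 0.895.

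Of the 10 chemokines, 4 were higher in RA as differentially expressed genes (DEGs), namely Ccl2, Ccl7, Cxcl1 and Cxcl10, at log2FC values between 1.02 and 1.25. A DEG had a Benjamini-Hochberg adjusted p below 0.05 over all 13438 tested genes in edgeR's quasi-likelihood test and an absolute log2FC above 0.58. By this rule 4.96% of the tested genes were DEGs, 2.67% being higher and 2.29% lower in RA. Because the members were chosen with earlier results known, these shares are given for scale and are no test of the family. In edgeR the adjusted p alone picked the same 4 chemokines, and 9.82% of the tested genes. No chemokine was a lower DEG (0 of 10), with edgeR, DESeq2 or limma, and 1 of them, Cxcl14, was lower at an unadjusted p under 0.05 in edgeR. That looser limit was passed by 24% of the tested genes, 12.3% being higher and 11.7% lower in RA. Cxcl12, Cxcl14, Cxcl16 and Cx3cl1 were tested and were not DEGs. Ccl20 and Cxcl2 had too few reads to be tested. For 5 of the 10 chemokines, Ccl20 left aside, every RA sample lay above every CON sample in FPKM, which held for 18.9% of the tested genes. They were the 4 DEGs and Cxcl12, which was separated only barely, by 1.664 FPKM in RA 2 against 1.662 in CON 2. For 0 of the 10 did every RA sample lie below every CON sample, which held for 13.3%, so that groups did not overlap for 32.2% of the tested genes in all.

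**Figure D1:**
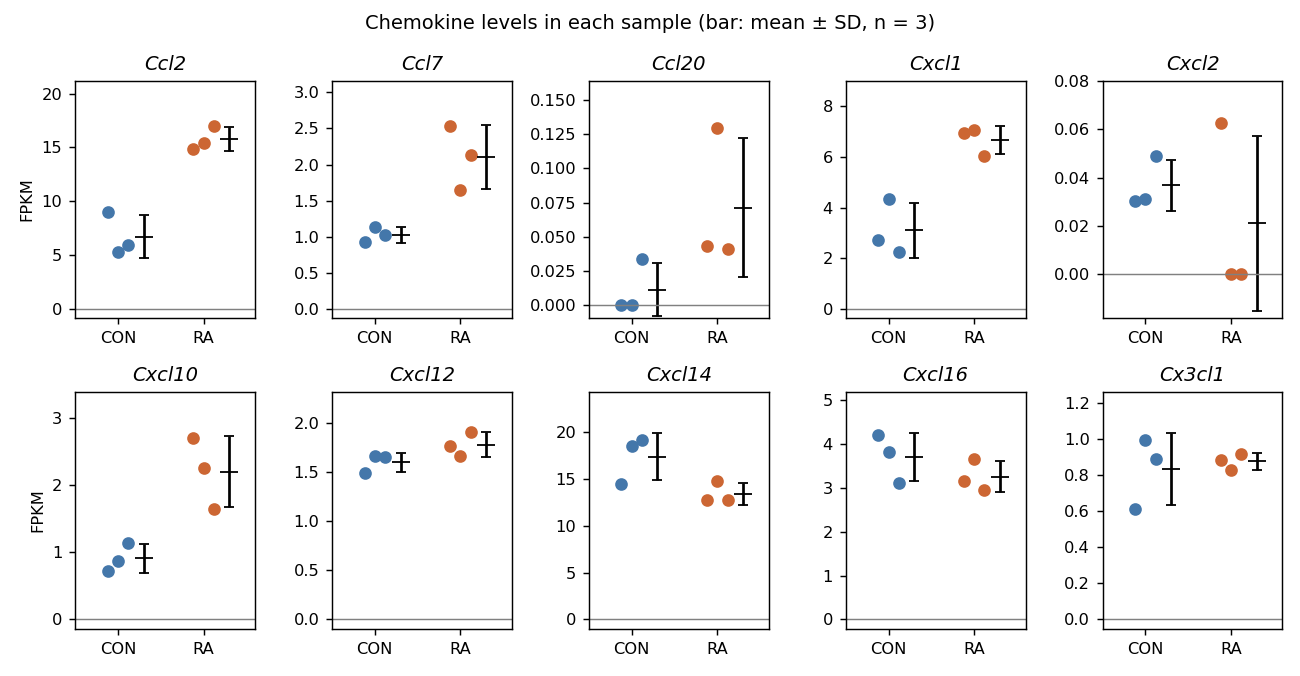
FPKM of each of the 10 chemokines (vertical axes, a separate linear scale for each gene) in the 3 CON and 3 RA samples. Points are samples in the order 1, 2 and 3, and bars beside them are the mean ± SD. Ccl2, Ccl7, Cxcl1 and Cxcl10 lie higher in every RA sample, and Cxcl12 does so only barely. Cxcl14, Cxcl16 and Cx3cl1 overlap between groups, and Ccl20 and Cxcl2 do not exceed 0.13 FPKM.

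Ccl2 (ENSRNOG00000007159), also called MCP-1, is the main attractant of monocytes through the receptor CCR2. Its level was 8.97, 5.24 and 5.89 FPKM in the CON samples 1, 2 and 3, and 14.9, 15.4 and 17.0 FPKM in the RA samples. The lowest RA sample was above the highest CON sample, which was CON 1. The mean went from 6.70 ± 1.99 to 15.8 ± 1.11 FPKM, and the log2FC was 1.22 (SE 0.194, 95% interval 0.78 to 1.67, adjusted p = 0.00560, edgeR). These values rest on 132 to 440 reads per sample. Without CON 1, the library that stood apart, the log2FC was 1.48, and the gene kept its call whichever of the 6 samples was removed.

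Ccl7 (ENSRNOG00000000239), or MCP-3, is a relative of Ccl2 that shares its target cells. It was expressed at a much lower level, with 0.919, 1.13 and 1.02 FPKM in the CON samples and 2.54, 1.64 and 2.13 FPKM in the RA samples. The groups did not overlap, and the RA samples were more spread than the CON samples. The log2FC was 1.02 (SE 0.249, 95% interval 0.45 to 1.59, adjusted p = 0.0373, edgeR), on 24 to 64 reads per sample. This call was the least firm of the 4. When samples were removed singly it was kept only without CON 1 (0.95), and the adjusted p ran from 0.0455 to 0.144, although the log2FC stayed between 0.87 and 1.17. Within a sample, Ccl2 was 4.63 to 9.76 times the level of Ccl7 in CON and 5.87 to 9.39 times in RA, ranges that overlap.

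Cxcl1 (ENSRNOG00000002802), or KC/GRO, attracts neutrophils through CXCR2. Its level was 2.71, 4.33 and 2.24 FPKM in the CON samples and 6.95, 7.06 and 6.04 FPKM in the RA samples. CON 2 was the highest CON sample and still lay below every RA sample. The log2FC was 1.11 (SE 0.235, 95% interval 0.57 to 1.64, adjusted p = 0.0208, edgeR), on 77 to 192 reads per sample. It was 1.02 without CON 1, 1.42 without CON 2 and 0.92 without CON 3, with the gene still a DEG. Without RA 1 (1.08), RA 2 (1.06) or RA 3 (1.17) it was no longer a DEG, with adjusted p values of 0.0823, 0.0894 and 0.0581.

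Cxcl2 (ENSRNOG00000002792), or MIP-2, binds the same receptor as Cxcl1 and had the same kind of promoter match, but was close to undetected. It had 1, 1 and 2 reads in the CON samples and 2, 0 and 0 reads in the RA samples, at or below the limit of 3 reads, so no fold change is given. Ccl20 (ENSRNOG00000015992), or MIP-3α, which attracts CCR6-bearing lymphocytes and dendritic cells, had 0, 0 and 1 reads in CON and 1, 3 and 1 reads in RA. A change of either gene was not detectable at this depth.

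Cxcl10 (ENSRNOG00000022256), or IP-10, is an interferon-inducible attractant of T cells through CXCR3. Its level was 0.718, 0.877 and 1.14 FPKM in the CON samples and 2.70, 2.25 and 1.65 FPKM in the RA samples. The groups did not overlap, with CON 3 the highest CON sample and RA 3 the lowest RA sample. The log2FC was 1.25 (SE 0.271, 95% interval 0.63 to 1.87, adjusted p = 0.0229, edgeR), on 25 to 91 reads per sample. It was 1.10 without CON 1, 1.46 without CON 3 and 1.42 without RA 3, with the gene still a DEG. It lost the call without CON 2 (1.21), RA 1 (1.08) or RA 2 (1.23), with adjusted p values of 0.0899, 0.100 and 0.0912.

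**Figure D2:**
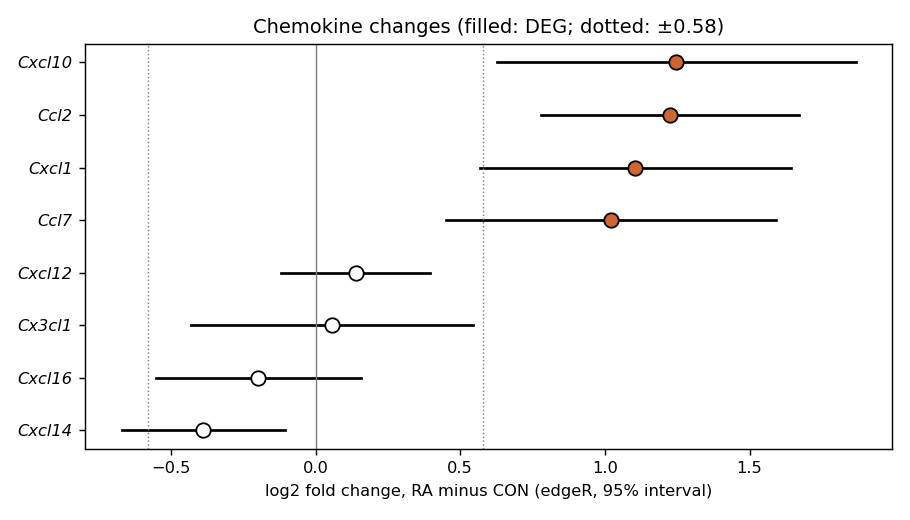
Log2 fold change of RA against CON (horizontal axis) for the 8 chemokines that were tested, with the 95% interval from edgeR's quasi-likelihood fit. Filled points are DEGs and dotted lines mark the threshold of 0.58. The 4 DEGs lie between 1.02 and 1.25, and the other points between -0.39 and 0.14.

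Cxcl14 (ENSRNOG00000011984), or BRAK, is a homeostatic chemokine of epithelia and connective tissue. It was the most abundant of the 10 in CON, with 14.5, 18.5 and 19.1 FPKM, and had 12.7, 14.8 and 12.7 FPKM in the RA samples. RA 2 lay above CON 1, so the groups overlapped. The log2FC was -0.39 (SE 0.123, 95% interval -0.67 to -0.11, adjusted p = 0.0929, edgeR), which is not a DEG. DESeq2 gave an adjusted p of 0.0445 at the same log2FC, short of the threshold of 0.58. With limma on log2(FPKM + 0.1) the adjusted p was 0.12. Without CON 1, which was the lowest CON sample, the groups no longer overlapped, and the log2FC was -0.51 with an adjusted p of 0.00114, still short of the threshold of 0.58.

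Cxcl12 (ENSRNOG00000013589), or SDF-1, holds CXCR4-bearing stem cells and leukocytes in their niche. Its level was 1.49, 1.66 and 1.65 FPKM in the CON samples and 1.76, 1.66 and 1.91 FPKM in the RA samples. RA 2 and CON 2 were almost equal, and the log2FC was 0.14 (SE 0.112, 95% interval -0.12 to 0.40, adjusted p = 0.495, edgeR). The interval leaves out the threshold of 0.58.

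Cxcl16 and Cx3cl1 are the chemokines made as membrane proteins with a stalk, from which proteases of the ADAM family release the chemokine domain. Cxcl16 (ENSRNOG00000026647), a ligand of CXCR6 and a scavenger of oxidized lipoprotein, was at 4.20, 3.81 and 3.12 FPKM in the CON samples and at 3.16, 3.65 and 2.96 FPKM in the RA samples. The groups overlapped, and the log2FC was -0.20 (95% interval -0.55 to 0.16, adjusted p = 0.481, edgeR). Cx3cl1 (ENSRNOG00000016326), or fractalkine, was at 0.614, 0.996 and 0.892 FPKM in the CON samples and at 0.883, 0.828 and 0.920 FPKM in the RA samples. CON 1 was the lowest of the 6 samples and CON 2 the highest. The log2FC of Cx3cl1 was 0.06 (95% interval -0.43 to 0.55, adjusted p = 0.899, edgeR), and -0.12 without CON 1.

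**Figure D3:**
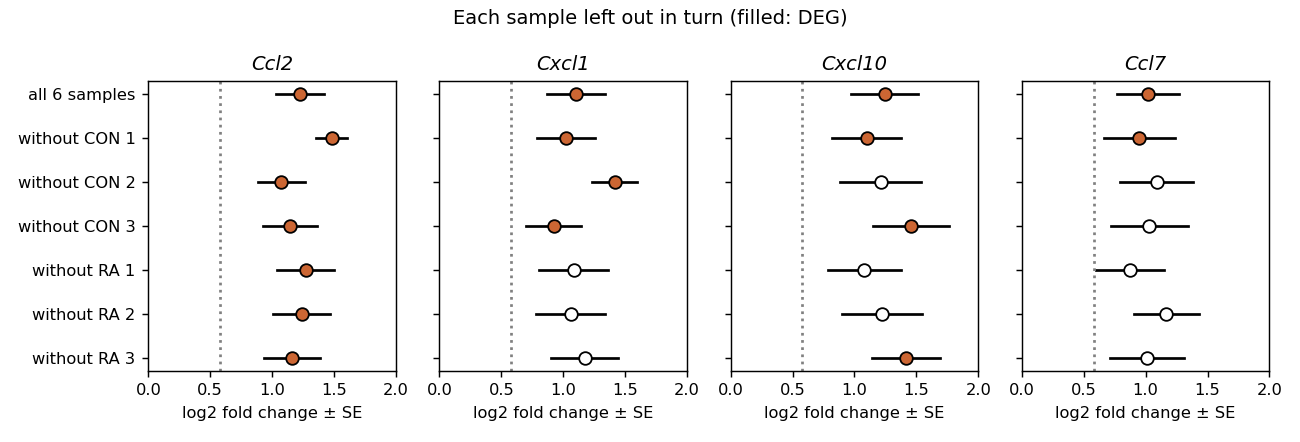
Log2 fold change ± SE (horizontal axes) of the 4 chemokines that were DEGs, for the full set of 6 samples and after removal of each sample singly. Filled points are DEGs and the dotted line is the threshold of 0.58. Ccl2 is filled in every row, whereas Cxcl1, Cxcl10 and Ccl7 have open points at log2FC values of 0.87 or more.

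Summed over the 10 chemokines, the level was 34.2, 36.6 and 35.1 FPKM in the CON samples and 45.7, 47.4 and 45.4 FPKM in the RA samples. The mean sum was 35.3 ± 1.22 in CON and 46.2 ± 1.1 in RA, or 1.31 times as high. The make-up of this pool differed as well. Cxcl14 made up 42.5%, 50.6% and 54.3% of the sum in the CON samples and 27.8%, 31.2% and 28.0% in the RA samples. Ccl2 made up 26.3%, 14.3% and 16.8% in CON and 32.6%, 32.5% and 37.5% in RA. The share of Cxcl16 went from 10.5% ± 1.72 to 7.04% ± 0.607 and that of Cxcl1 from 8.72% ± 2.81 to 14.5% ± 1.02. Each of these shares and the sum separated the groups, with a two-sided exact permutation p of 0.1, the smallest that 3 against 3 samples allow, and 0.138 after Benjamini-Hochberg adjustment over 11 tests. A share falls when other members rise, so the fall in the share of Cxcl16 is no measure of Cxcl16 alone.

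**Figure D4:**
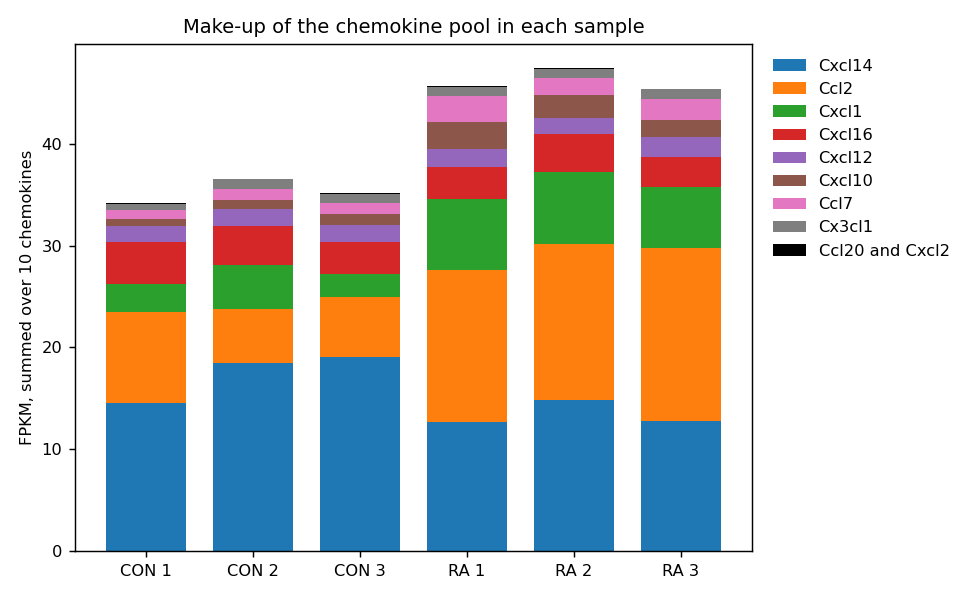
FPKM summed over the 10 chemokines (vertical axis, from 0) in each of the 6 samples, with each colour a chemokine. The stacks reach 34.2 to 36.6 FPKM in CON and 45.4 to 47.4 in RA, and the Ccl2 layer is the one that widens most.

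In the order of levels in CON, Cxcl14 came first, followed by Ccl2, Cxcl16, Cxcl1, Cxcl12, Ccl7, Cxcl10, Cx3cl1, Cxcl2 and Ccl20. Cxcl16 and Cxcl1 overlapped, as did the neighbours Ccl7 and Cxcl10, Cxcl10 and Cx3cl1, and Cxcl2 and Ccl20, and the other neighbours did not overlap. In RA the order was Ccl2, Cxcl14, Cxcl1, Cxcl16, Cxcl10, Ccl7, Cxcl12, Cx3cl1, Ccl20 and Cxcl2. There Ccl2 and Cxcl14 did not overlap, whereas Cxcl10 overlapped with Ccl7, Ccl7 with Cxcl12, and Ccl20 with Cxcl2. The within-sample ratio of Ccl2 to Cxcl14 was 0.618, 0.283 and 0.309 in CON and 1.17, 1.04 and 1.34 in RA, so that the leading chemokine changed from Cxcl14 to Ccl2 in each RA sample. Even Cxcl14 was of middling abundance among genes, higher in CON than 68.6% of the tested genes, and Ccl2 was higher than 44.5%.

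Other ligands of the family added little. Of 27 further chemokine genes, 12 were matched by symbol and 3 passed the filter on low counts. None of the 3 was a DEG with edgeR, DESeq2 or limma, and 0 had an unadjusted p under 0.05 in edgeR, beside 4.96% and 24% of all tested genes. Cxcl3, a neighbour of Cxcl1 and Cxcl2 in the family, was at 0.211 ± 0.134 FPKM in CON and 0.448 ± 0.0547 in RA, the log2FC being 1.11 (SE 0.485, adjusted p = 0.21, edgeR). The skin-associated Ccl27 had -0.26 and the CXCR3 ligand Cxcl11 had -0.38, with adjusted p values of 0.656 and 0.687. 

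On the receptor side, 12 of 23 genes were matched and 5 were tested. None was a DEG with edgeR, DESeq2 or limma, beside 4.96% of all tested genes, and 3 had an unadjusted p under 0.05 in edgeR, all higher in RA, as had 12.3% of all tested genes. The highest was Ackr3, an atypical receptor that takes up Cxcl12 without classical signalling, at 24.8 ± 1.33 FPKM in CON and 28.6 ± 1.4 in RA, with a log2FC of 0.19 (adjusted p = 0.152, edgeR). Ackr4, which takes up CCR7 ligands, was at 5.99 ± 0.092 and 7.32 ± 0.759 FPKM, the log2FC being 0.28 (adjusted p = 0.15, edgeR). Cxcr3, the receptor of Cxcl10, was at 0.182 ± 0.118 and 0.381 ± 0.0301 FPKM, with 1.07 (adjusted p = 0.191, edgeR). Cxcr5 had -0.25 and Ccrl2 -0.06. Cxcr4, the signalling receptor of Cxcl12, had 2, 1 and 0 reads in CON and 0 in each RA sample.

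Enzymes that release or trim chemokines were all matched (14 of 14), and 13 were tested, of which 3 were higher DEGs and 0 were lower ones with edgeR, DESeq2 or limma, beside 2.67% and 2.29% of all tested genes. At an unadjusted p under 0.05 in edgeR, 9 were higher and 3 were lower, beside 12.3% and 11.7% of all tested genes. The DEGs were the matrix metalloproteinases Mmp3, with a log2FC of 1.02 (adjusted p = 0.0018, edgeR), and Mmp9, with 2.88 (adjusted p = 0.00231), and the urokinase gene Plau, with 0.66 (adjusted p = 0.00428). Adam10, a sheddase of Cx3cl1 and Cxcl16, was at 9.44 ± 0.462 FPKM in CON and 12.5 ± 0.816 in RA, the log2FC being 0.39 (adjusted p = 0.00973, edgeR), below the threshold of 0.58. Its relative Adam17 had -0.20 (adjusted p = 0.095) and Dpp4, which trims the ends of Cxcl10 and Cxcl12, had -0.86 (adjusted p = 0.124), at 0.385 ± 0.105 and 0.214 ± 0.0535 FPKM.

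The 15 genes of NF-κB subunits, kinases and inhibitors were all tested, and 0 were DEGs with edgeR, DESeq2 or limma, beside 4.96% of all tested genes. Their log2FC values lay between -0.35 and 0.26 with a median of -0.03, beside -0.0057 over all tested genes, and 1 of the 15 had an unadjusted p under 0.05 in edgeR, beside 24% of all tested genes. That gene was Nfkbia, the inhibitor that NF-κB itself induces, at 11.6 ± 1.49 FPKM in CON and 14.1 ± 0.785 in RA, the log2FC being 0.26 (adjusted p = 0.199, edgeR). Rela, the p65 subunit, had 0.15 (adjusted p = 0.343). These are transcript levels, and NF-κB is controlled mainly at the protein.

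Among 25 cytokines and receptors that lie upstream of chemokines, 23 were matched and 18 were tested. Il1rl1, the IL-33 receptor ST2, rose from 28.9 ± 4.68 to 189 ± 18.2 FPKM, and Tnfrsf1b, the TNF receptor 2, from 3.28 ± 0.4 to 5.38 ± 0.387. Their log2FC values were 2.70 (adjusted p = 1.22e-05, edgeR) and 0.70 (adjusted p = 0.00844), and they were the 2 DEGs among the 18, both higher in RA, beside 2.67% of all tested genes. At an unadjusted p under 0.05 in edgeR, 5 of the 18 were higher and 2 lower, beside 12.3% and 11.7%. Without RA 3 the list held 1 DEG. Il1r1, the IL-1 receptor, was just under the threshold, at 0.57 (adjusted p = 0.00125, edgeR). Of the cytokines themselves, Il1b had 0 reads in each sample but RA 3, which had 1, and Il6, at 0.222 ± 0.105 and 0.419 ± 0.316 FPKM, did not pass the filter. Il33 was at 0.958 ± 0.258 and 1.29 ± 0.0414 FPKM, with a log2FC of 0.42 (adjusted p = 0.287, edgeR). Tnf was not analysed here.

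Of 19 genes of the interferon response, 11 were tested and 0 were DEGs with edgeR, DESeq2 or limma, beside 4.96% of all tested genes. Their median log2FC was -0.098, from -0.40 to 0.28. In edgeR, 2 of the 11 had an unadjusted p under 0.05, both lower in RA, beside 11.7% of all tested genes. The transcription factor Stat2 had -0.35 (adjusted p = 0.0095, edgeR), below the threshold of 0.58 in size. Irf1 had 0.11 (adjusted p = 0.452, edgeR).

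**Figure D5:**
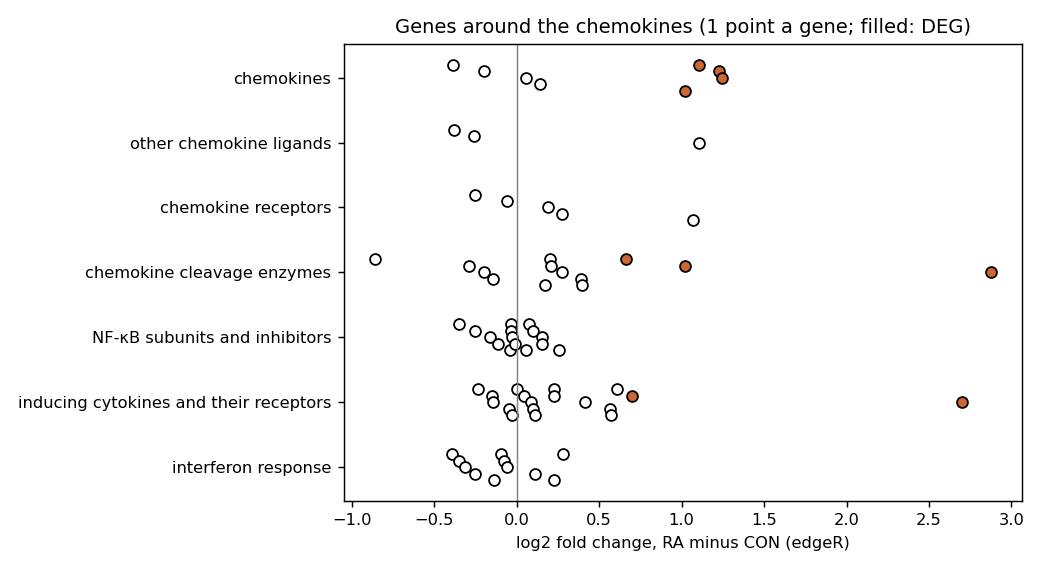
Log2 fold change of RA against CON (horizontal axis) of every tested gene of the chemokines and of 6 surrounding lists, with 1 point a gene, filled for DEGs. Chemokines, cleavage enzymes and the inducing cytokines with their receptors hold 4, 3 and 2 filled points on the right, whereas the receptors, the other ligands, NF-κB and the interferon response hold none.

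For each of the 4 DEGs, the genes most like it among the members and lists were found by Pearson's r of log2 CPM over the 6 samples, out of 96 candidates. They were Csf1 (r = 0.984) and Cyp26a1 (0.977) for Ccl2, Pdgfra (0.957) and Tnfrsf1b (0.953) for Ccl7, Tgm2 (0.948) and Plat (0.947) for Cxcl1, and Ackr3 (0.957) and Crabp2 (0.943) for Cxcl10. The 6 samples form 2 groups, so these values largely describe genes that were also higher in RA. Csf1, the macrophage growth factor, was at 38.2 ± 2.53 FPKM in CON and 57.4 ± 1.6 in RA, the log2FC being 0.57 (adjusted p = 0.0011, edgeR).

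Leukocytes also make chemokines, and in bulk RNA a change in the number of such cells and a change in RNA per cell cannot be told apart. Of 15 macrophage markers 14 were matched, and their summed level was 14.3 to 16.1 FPKM in the CON samples and 17.4 to 18.8 in the RA samples. Most of it was Cd14, at 12.9 ± 0.834 and 15.3 ± 0.663 FPKM, and none of the 5 tested markers was a DEG with edgeR, DESeq2 or limma, with 1 at an unadjusted p under 0.05 in edgeR, beside 4.96% and 24% of all tested genes. Cd68 was at 1.05 ± 0.125 and 1.28 ± 0.0277 FPKM, with every RA sample above every CON sample (log2FC 0.27, adjusted p = 0.466, edgeR), and Csf1r at 0.0864 ± 0.0569 and 0.171 ± 0.0594 FPKM (log2FC 0.91, adjusted p = 0.305). Lyz2 and Fcer1g had log2FC values of -0.27 and -0.22, at 0.420 and 0.688 FPKM in CON. The other 9 had too few reads to be tested, namely Ptprc, Adgre1, Aif1, Itgam, Mrc1, C1qa, C1qb, C1qc and Tyrobp, and their group means were at most 0.110 FPKM. Among them the pan-leukocyte gene Ptprc was at 0.0152 ± 0.00997 and 0.0111 ± 0.0141 FPKM. Of 8 neutrophil markers 5 were matched and 0 passed the filter on low counts, with sums of 0.0338 to 0.29 FPKM in CON and 0.0882 to 0.17 in RA. Of 8 endothelial markers 6 were matched, with sums of 5.49 to 8.03 and 6.22 to 6.85 FPKM, nearly all of it Egfl7. Emcn had no read in any sample.

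Markers of fibroblasts and perichondrium were abundant in both groups, with sums of 4109 to 5223 FPKM in CON and 5187 to 5418 in RA over 11 of 12 matched genes. Of the 11, 1 was a lower DEG and 0 were higher ones, beside 2.29% and 2.67% of all tested genes, and at an unadjusted p under 0.05 in edgeR 4 were higher and 3 lower, beside 12.3% and 11.7%. The DEG was Postn, with a log2FC of -1.28 (adjusted p = 2.31e-04, edgeR). Pdgfra, Prrx1 and Twist1, at 0.44, 0.49 and 0.43, and Dcn, at -0.41, passed the adjusted p in edgeR but not the threshold of 0.58 in size. Of the 13 chondrocyte markers, 11 were DEGs, each lower in RA, beside 2.29% of all tested genes. They were Col2a1, Acan, Col9a1, Col11a1, Col11a2, Hapln1, Matn1, Matn3, Comp, Cnmd and Snorc, from -0.60 for Col11a1 to -1.65 for Matn3. Of 3 tested muscle markers, Myod1 was a higher DEG (log2FC 1.93) and Tnnt3 a lower one (4.71 against 2.36 FPKM), with summed levels of 9.23 to 10.9 FPKM in CON and 8.93 to 10.9 FPKM in RA over 6 of 8 matched genes. Both muscle calls were lost without CON 2, without RA 1 and without RA 2. The part of these marker changes in the chemokine results was not tested.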

How the data were processed

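RNA-seq libraries of 3 CON and 3 RA samples were grouped by their sample titles. According to the submitters' processing notes, reads were aligned with HISAT2 and counted per gene with HTSeq 0.13.5 on Rnor_6.0. The strand setting, the annotation release and the treatment of reads shared by close relatives are not given in the sources used here, so counts of Cxcl1, Cxcl2 and Cxcl3, and of Ccl2 and Ccl7, carry that uncertainty. The authors deposited raw read counts per gene. The authors deposited FPKM values beside them, which were checked to be the counts scaled by 1 length per gene and by each library's total.

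Counts were tested with edgeR 4.0.16 (R 4.3.3): filterByExpr with a minimum count of 10, TMM factors, glmQLFit and glmQLFTest without covariates, and Benjamini-Hochberg adjustment over 13438 genes. Standard errors and 95% intervals were derived from the F statistic and its degrees of freedom. Shares were compared with exact permutation tests. The edgeR p-values set the difference between groups against the spread between these samples. Whether the samples of a group came from separate animals is not stated. The code was tested on simulated counts. Alternatives used DESeq2 1.42.0, limma 3.58.1 on log2(FPKM + 0.1) and log2(FPKM + 1), other scalings, filters and call rules, a replicate block, and each sample left out.

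The members and lists were chosen with earlier results of these data known. Named were all members, DEGs of the lists, tested ligands and receptors, some fixed genes and the 2 genes most like each called member, and some genes of the lists are not reported here. Nfkbia and Rela were fixed, whereas Cxcr4, Adam10, Adam17, Dpp4, Il1r1, Il33, Stat2, Irf1, Egfl7, Emcn, Prrx1, Twist1, Dcn and the macrophage markers other than Ptprc were chosen after their values were seen. Where 1 symbol stood for several identifiers (75 symbols, none of them a member), the one with the highest mean count was used.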

Additional observations from a re-analysis of the deposited data

How the results depend on the processing

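Ccl2 was a DEG under all 17 alternatives, with a log2 fold change from 1.07 to 1.48. Cxcl1 was a DEG under 14 of the 17 (0.92 to 1.42), Cxcl10 under 14 (0.74 to 1.46) and Ccl7 under 11 (0.61 to 1.17). Among the 17, adjusted p alone, and unadjusted p with the fold change, were looser rules on the main fit. Those rules could not lose a DEG. With each sample left out in turn, between 1 and 4 chemokines were higher DEGs, with 2 without CON 2 or RA 3 and 1 without RA 1 or RA 2. No alternative made a chemokine a lower DEG. Cx3cl1 changed sign without CON 1, and ran from -0.12 to 0.19 with 1 sample left out. The number of DEGs lay between 480 and 755 with 1 sample left out. It was 434 (178 lower) with limma on log2(FPKM + 1), 1319 (714 higher and 605 lower) by adjusted p alone, and 1017 (513 lower) by unadjusted p and fold change. With the replicate number as a block, 684 genes were DEGs and 3 chemokines were higher, Ccl7 having an adjusted p of 0.0618. The labels say nothing of what shared numbers mean, and deviations of same-numbered samples correlated at 0.071, -0.012 and 0.0042, so the numbers were not taken as pairs, and not every sample correlated best with its own number. The low counts of Ccl7 and Cxcl10, and those of Ccl20 and Cxcl2, limit what can be detected for these genes.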
